A study of Mus musculus with 8 samples.

Results

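The genes described here are the 10 of the VEGF and angiopoietin pathways named Vegfa, Vegfb, Vegfc, Flt1, Kdr, Nrp1, Nrp2, Angpt1, Angpt2 and Tek. They were picked by symbol from the 56749 features counted in nuclei of mouse visceral white adipose tissue, and all 10 were found in each of the 8 libraries. Vegfa, Vegfb and Vegfc encode secreted growth factors. Flt1 and Kdr encode their tyrosine kinase receptors, and the neuropilins Nrp1 and Nrp2 encode co-receptors. Angpt1 and Angpt2 encode the ligands of Tek, the angiopoietin receptor also called TIE2.

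In blood vessels, VEGF-A acting on the Kdr product drives endothelial growth and permeability, while the Flt1 product binds the same ligand and in its soluble form traps it. VEGF-B also binds the Flt1 product, and VEGF-C acts mainly on lymphatic endothelium through another receptor, Flt4. ANGPT1 activates TIE2 and stabilises vessels, and ANGPT2 competes with it in many settings. In fat tissue these factors are studied because the vessel bed has to grow as fat depots expand.

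The mice formed 4 groups of 2. SD controls (rep144 and rep146) had the genotype p21+/mCherry and ate a standard diet (SD). HFD controls (rep128 and rep129) had the same genotype and ate a high-fat diet (HFD). Tert mice (rep134 and rep136, p21+/mCherry-Tert) and TertCi mice (rep138 and rep140, p21+/mCherry-TertCi) ate the high-fat diet as well. The plots label these groups mCherry SD, mCherry HFD, Tert HFD and TertCi HFD. All 8 mice thus carried mCherry, a red fluorescent protein, at 1 allele of p21, the cell cycle inhibitor encoded by Cdkn1a. The p21 promoter drives Tert, the gene of the catalytic subunit of telomerase, or TertCi. The labels do not say how TertCi differs from Tert, nor do they give age, sex or the length of the diet. Each mouse gave 1 library, and all groups were fitted together. P-values therefore rest on the spread between mice pooled over the 4 groups, not on the 2 groups compared alone. The comparisons of Tert and TertCi mice share the HFD controls, and the diet comparison uses the same 2 mice, so their results are given side by side and are not independent.

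Libraries held 23378488 to 139749876 UMIs, the unique molecular identifiers that count captured RNA molecules, and 30209 nuclei were kept, 1978 to 7433 per library. The median nucleus held 1682 to 7134 UMIs. Of 30088 distinct nucleus barcodes, 119 occurred in more than 1 library. Mice of the same group differed by more than counting noise. Counts of Cdkn1a ran from 1.57 to 3.19 CPM in SD controls, from 14.3 to 17.1 in HFD controls and from 4.28 to 8.48 in the other 4 libraries. Tert was at 2.01 to 2.76 CPM in the Tert and TertCi libraries and at 3.27 to 3.98 in the 4 mCherry libraries. Libraries held 0 to 17 UMIs of mCherry, so these counts do not check the genotype labels, and whether the counted reads cover the inserted sequence is not given in the sources used here. Clusters of nuclei were named from marker genes, none of which is one of the 10, and classes are called adipocyte-like, progenitor-like (fibroblast-like stromal cells that include adipocyte precursors), macrophage-like, endothelial-like and mural-like. The makeup of these classes differed between groups: the HFD control libraries held 266 and 93 adipocyte-like nuclei, and most of their progenitor-like and macrophage-like nuclei lay in clusters that the other groups barely filled.

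Levels are in CPM, the UMI count of a gene scaled to the total UMIs of that class in a library. Droplets with too few UMIs to be nuclei carry free RNA, and the level of a gene in them is called its background. A level below background does not show that the class expresses the gene.

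The ligand Vegfa was highest in adipocyte-like nuclei, at 379 ± 66.7 CPM (SD over 8 libraries), with a median ratio to background of 1.92 and a level above background in 7 of 8 libraries. Vegfa was below background in all 8 progenitor-like and all 8 macrophage-like samples. Of all Vegfa UMIs in kept nuclei, adipocyte-like nuclei held 50.7% ± 2.6 in SD controls and 45.0% ± 0.2 in HFD controls. They held 68.6% ± 10.4 in Tert mice and 74.0% ± 3.4 in TertCi mice (SD, n = 2 each). Such a share depends on the size of a class in a library as well as on the level of the gene. Vegfb was also highest in adipocyte-like nuclei, at 16.4 ± 4.7 CPM, which was 1.44 times background. Vegfc had its highest level in progenitor-like nuclei (295 ± 114.5 CPM, 3.34 times background, above it in 8 of 8 libraries). Mesothelial-like nuclei at 178 and endothelial-like nuclei at 161 CPM followed, and the 3 ranges overlapped.

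The receptor Flt1 was highest in endothelial-like nuclei, at 343.5 ± 75.2 CPM and 5.37 times background. Kdr was at 65.1 CPM in lymphatic endothelial-like nuclei (5 libraries) and at 59.2 ± 23.4 in endothelial-like nuclei, a difference smaller than the spread over libraries. Mesothelial-like nuclei held Kdr at 18.8 ± 4.4 CPM in SD controls (n = 2), near background (19.9). Values there were 34.9 ± 12.8 in HFD controls, 25.2 ± 29.3 in Tert mice and 43.2 ± 12.1 in TertCi mice. In SD controls these nuclei held more Kdr UMIs than endothelial-like nuclei (234 against 57). In HFD controls, Tert mice and TertCi mice they held fewer (226 against 318, 147 against 586, and 137 against 353). Tek was highest in progenitor-like nuclei, at 232 ± 47.5 CPM and 3.75 times background, ahead of endothelial-like nuclei at 167 ± 29.7 and 2.56 times background. That order holds for the mean over 8 libraries: in HFD controls the ranges of the 2 classes overlapped (152 and 178 in progenitor-like, 174 and 196 in endothelial-like nuclei), and endothelial-like cluster 15 held 284 to 404 in Tert and TertCi mice. Tek is best known as an endothelial gene, and in both classes it was above background in 8 of 8 libraries. The co-receptors had their highest class means over libraries in macrophage-like nuclei: Nrp1 was at 846 ± 152 CPM there and Nrp2 at 340.5 ± 66.9. Endothelial-like cluster 15 alone held Nrp1 at 897 to 1307 CPM, above the macrophage-like value of the same mouse in all 6 high-fat diet mice, and Nrp2 at 268 to 477, a range that overlapped macrophage-like nuclei. Nrp1 was also high in mural-like (721) and endothelial-like nuclei (695), within the spread of macrophage-like nuclei, and its ratio to background was 1.55 in macrophage-like nuclei. Angpt1 was highest in progenitor-like nuclei, at 227 ± 61.7 CPM, followed by mural-like nuclei (178) and adipocyte-like nuclei (157). This order is of means over libraries: in SD controls adipocyte-like nuclei (311 and 303) were above progenitor-like nuclei (262 and 259), and in HFD controls the mural-like values (121.6 and 220.6) overlapped the progenitor-like ones (123 and 138.3). Angpt2 had its highest mean over libraries in mural-like nuclei, the pericytes and smooth muscle cells of vessels, at 55.1 ± 26.8 CPM and 5.22 times background. In HFD controls adipocyte-like nuclei (80.8 and 62.4) and mural-like nuclei (81.4 and 59.2) did not differ beyond their spread, and in SD control rep146 mural-like nuclei were at 3.06, below adipocyte-like (5.68) and endothelial-like nuclei (13.6).

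**Figure D1:**
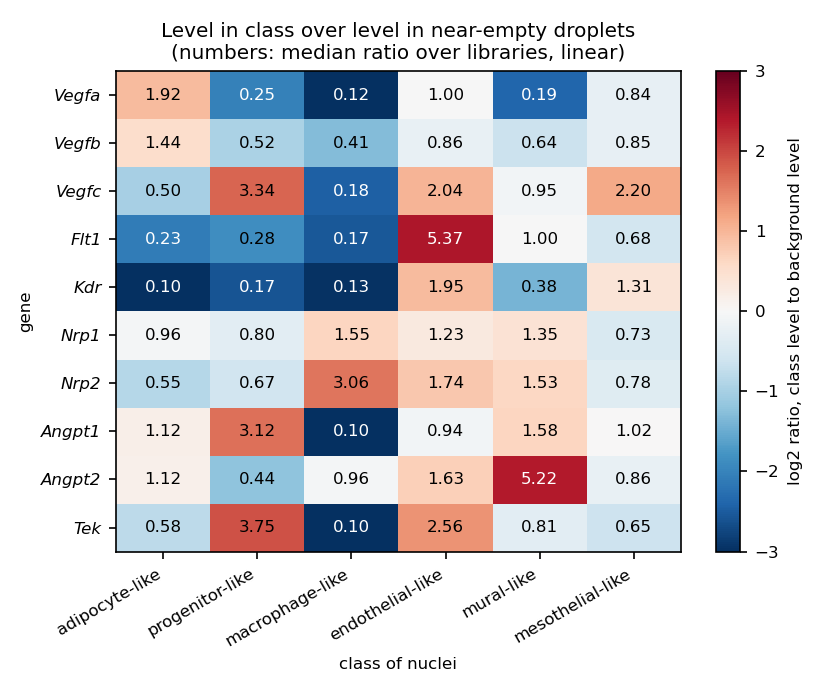
Level of each of the 10 genes in each class divided by its background level in the same library, as the median over libraries, on a log2 colour scale. Vegfa and Vegfb stand out in adipocyte-like nuclei, Vegfc, Angpt1 and Tek in progenitor-like nuclei, Flt1 in endothelial-like nuclei, Nrp2 in macrophage-like nuclei and Angpt2 in mural-like nuclei.

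The 5 classes were tested in 4 comparisons with edgeR's quasi-likelihood test on UMI counts summed per library and class. P-values were adjusted over all genes tested in that class and comparison, and a gene is called when the adjusted p is below 0.05. A log2 fold change is fitted after scaling by TMM, edgeR's correction for library composition, so it can differ from the ratio of the levels printed. In the diet comparison (HFD controls against SD controls), 3 of the 10 genes were called in adipocyte-like nuclei, where 22.7% of all tested genes were called. The counts were 6 of 10 in progenitor-like nuclei (23.2% of all genes), 4 of 10 in macrophage-like nuclei (20.9%), 4 of 10 in endothelial-like nuclei (21.1%) and 4 of 8 tested in mural-like nuclei (21.5%). For Tert mice against HFD controls, 1 of 10 was called in adipocyte-like nuclei (3.58% of all genes), 5 in progenitor-like nuclei (22.1%), 3 in macrophage-like nuclei (19.2%), 3 in endothelial-like nuclei (18.5%) and 0 of 8 in mural-like nuclei (3.01%). For TertCi mice against HFD controls, 3 of 10 were called in adipocyte-like nuclei (18.7%), 6 in progenitor-like nuclei (33.5%), 3 in macrophage-like nuclei (25.5%), 4 in endothelial-like nuclei (30.6%) and 1 of 8 in mural-like nuclei (7.44%). With lists of 10 and shares of up to 33.5% over all genes, most of these counts are near the background and are not a result about the 10 genes as a set.

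The median log2 fold change of the 10 genes in progenitor-like nuclei was -0.22 for diet, 0.46 for Tert and 0.21 for TertCi, beside 0.03, -0.02 and -0.03 over all tested genes. In adipocyte-like nuclei the 3 medians were -0.01, -0.05 and -0.17. Between Tert and TertCi mice, edgeR called 0 of the 10 genes in each of the 5 classes, and so did DESeq2. At an unadjusted p below 0.05 there was 0 in macrophage-like nuclei and 1 in each other class. Over all genes, 0.00736% were called in progenitor-like nuclei and 0.0% in the other 4 classes. In mural-like nuclei the 0 called for Tert stood beside 1 gene at an unadjusted p below 0.05 and 0 by DESeq2.

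**Figure D2:**
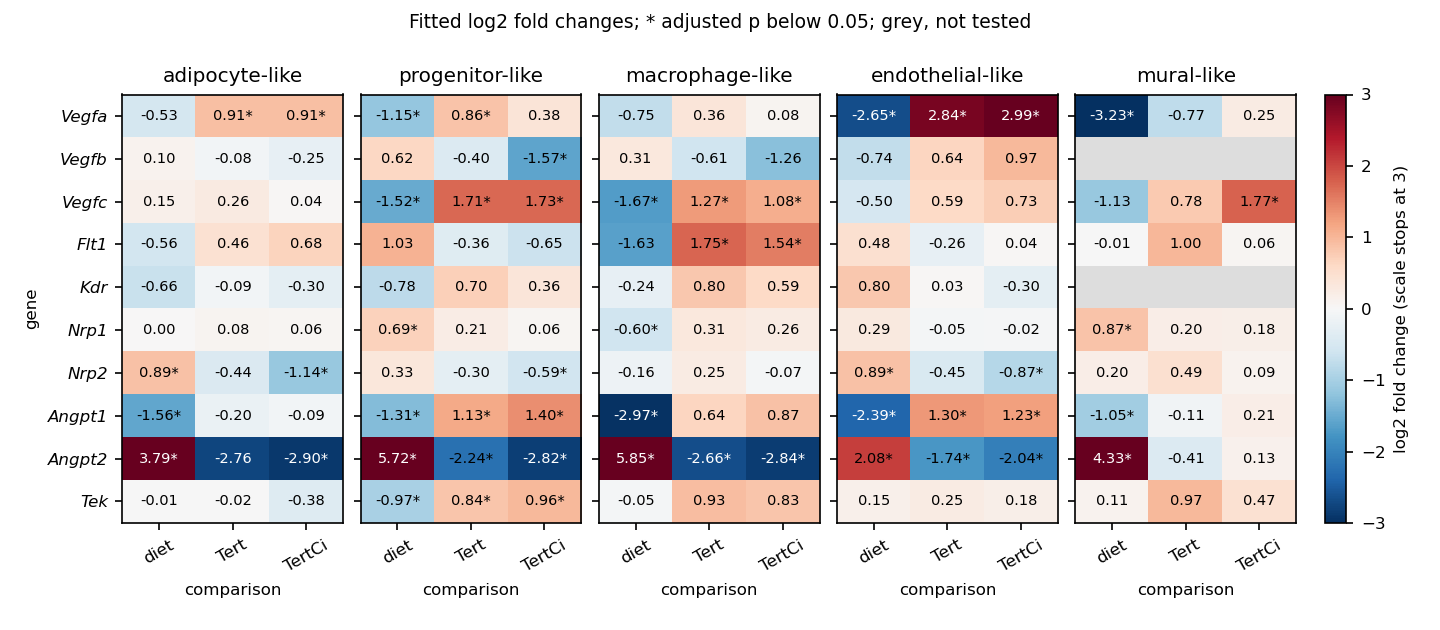
Fitted log2 fold change of each tested gene (rows) in each class for the diet, Tert and TertCi comparisons, as colour and number, with a star where edgeR's adjusted p is below 0.05 and grey where a gene was not tested. Angpt2 has a star for diet in the 5 classes, and Vegfa has a star in the 3 comparisons in endothelial-like nuclei.

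In adipocyte-like nuclei Vegfa was higher in the Tert and TertCi mice than in the HFD control mice. Its levels were 309 and 379 CPM in SD controls (rep144 and rep146), 333 and 281 in HFD controls (rep128 and rep129), 466 and 446 in Tert mice (rep134 and rep136) and 394 and 426 in TertCi mice (rep138 and rep140). All 4 values of the Tert and TertCi mice lay above both HFD control values, while the values of the SD and HFD controls overlapped. The fitted log2 fold change was 0.91 (SE 0.18, adjusted p = 0.0371) for Tert and 0.91 (SE 0.18, adjusted p = 0.0121) for TertCi, and diet gave -0.53 (SE 0.18, adjusted p = 0.0578), which passed at clustering resolution 2.0 (-0.59), without doublet removal (-0.63), without a filter on low counts (-0.61) and without rep134 (-0.57) or rep136 (-0.58). The edgeR diet value also passed with an earlier rule for naming clusters (-0.72, adjusted p = 0.0268). Vegfa background moved too: it was 146.3 and 437 CPM in SD controls, 63.1 and 139.96 in HFD controls, 159.9 and 269.9 in Tert mice, and 216 and 305 in TertCi mice, and its part in the difference was not tested.

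The adipocyte-like clusters were filled unequally. Cluster 14 held 61.0% of the HFD control nuclei of the class and cluster 22 held 31.8%. In SD controls cluster 11 held 43.9% and cluster 3 held 33.6%, in Tert mice cluster 23 held 35.0%, and in TertCi mice cluster 22 held 58.4%. Most of these last shares came from 1 mouse each. Of the 628 Tert nuclei in cluster 23, 622 were from rep136, and of the 1615 TertCi nuclei in cluster 22, 1349 were from rep138. Within cluster 14, which every library filled, Vegfa was at 265 and 333 CPM in SD controls, 269 and 246 in HFD controls, 436 and 371 in Tert mice, and 341 and 408 in TertCi mice. The order of the groups was as in the whole class, and the fitted change on the log2 scale was 0.82 (adjusted p = 0.0158) for Tert and 0.86 (adjusted p = 0.00607) for TertCi. The progenitor marker sum (7 genes, all detected) in this cluster was 1297 and 1955 CPM in HFD controls and 98.4 to 194 in the other 6 mice, and its part was not tested. In cluster 22 Vegfa was higher throughout, at 572 and 529, 490 and 532, 594 and 531, and 430.0 and 597 CPM in the same order of groups, and the groups overlapped. The whole-class calls were lost without TMM scaling (0.56, adjusted p = 0.0951 for Tert and 0.41, adjusted p = 0.119 for TertCi). They were also lost with 1000 UMIs in every library (0.79 and 0.82), for Tert with classes per nucleus (0.87, adjusted p = 0.0548), without rep128 (1.04 for both), without rep129 (0.84 and 0.85) and, for Tert, without rep136 (0.79).

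**Figure D3:**
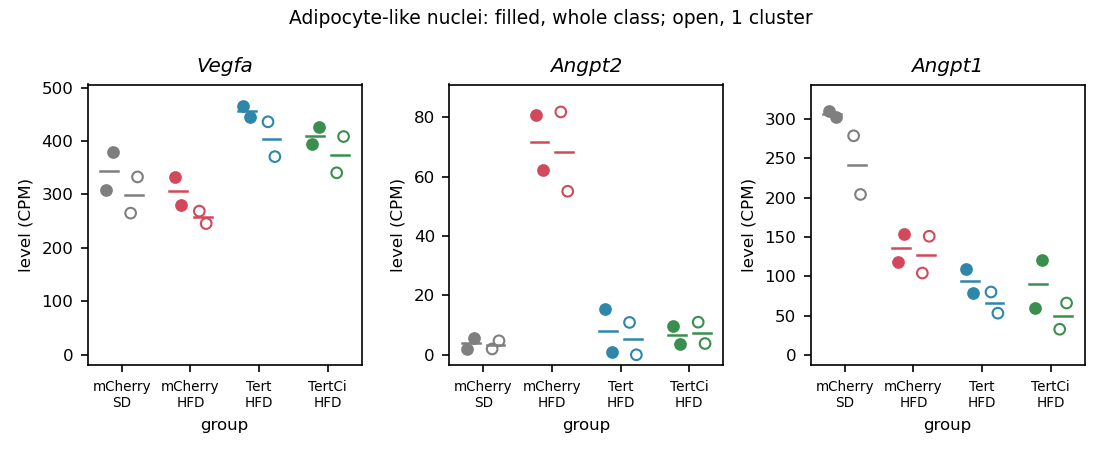
CPM of Vegfa, Angpt2 and Angpt1 in adipocyte-like nuclei of each mouse by group, for the whole class (filled points) and for cluster 14 alone (open points), with short lines at the mean of 2 mice. Vegfa of the Tert and TertCi mice lies above both HFD control mice in both sets of points, Angpt2 is high only in the 2 HFD control mice in this class, and Angpt1 is highest in the 2 SD control mice.

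The region just before the start of Vegfa is shown because Vegfa is the ligand that adipocyte-like nuclei hold most of, and those before Vegfc and Tek because both genes moved together in progenitor-like nuclei. Each run is the 250 bases before the start in RefSeq's GRCm38.p6 (the deposited counts are listed under mm39), read 5′ to 3′ on the gene's strand. Capitals mark the GC box, GGGCGG or its reverse complement CCGCCC. The Vegfa run is chr17:46032378-46032627 on the minus strand, the Vegfc run chr8:54077282-54077531 on the plus strand and the Tek run chr4:94739039-94739288 on the plus strand. Of the 10 genes, 8 matched the table of promoters, which lists more than 1 start for Vegfa.

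Vegfa: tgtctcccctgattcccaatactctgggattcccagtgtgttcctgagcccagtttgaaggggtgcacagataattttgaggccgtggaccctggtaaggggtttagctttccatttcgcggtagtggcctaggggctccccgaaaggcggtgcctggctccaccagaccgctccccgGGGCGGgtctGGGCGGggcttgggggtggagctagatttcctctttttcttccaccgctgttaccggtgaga

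Vegfc: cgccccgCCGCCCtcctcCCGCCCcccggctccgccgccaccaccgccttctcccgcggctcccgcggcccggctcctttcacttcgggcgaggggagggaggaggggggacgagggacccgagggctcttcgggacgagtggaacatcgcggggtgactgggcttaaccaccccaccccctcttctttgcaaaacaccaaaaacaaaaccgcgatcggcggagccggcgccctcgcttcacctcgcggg

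Tek: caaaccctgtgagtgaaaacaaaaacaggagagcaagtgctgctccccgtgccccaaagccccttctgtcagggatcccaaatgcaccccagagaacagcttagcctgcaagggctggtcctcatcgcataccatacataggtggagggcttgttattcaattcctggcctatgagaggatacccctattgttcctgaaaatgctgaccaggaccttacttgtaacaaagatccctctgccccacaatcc

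The GC box occurred 2 times in the Vegfa run, 2 times in the Vegfc run and 0 times in the Tek run, and 32.75% of 32841 promoters of the same length held it at least once. The hypoxia response core (ACGTG or GCGTG, either strand) was in none of the 3 runs and in 38.6% of all promoters. The Kdr run (chr5:75978456-75978705, minus strand) held it 2 times.

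Angpt2, the TIE2 ligand often called the vessel-destabilising one, was higher in the HFD control mice than in the other groups in several classes. In adipocyte-like nuclei its levels were 2.08 and 5.68 CPM in SD controls, 80.8 and 62.4 in HFD controls, 15.4 and 0.876 in Tert mice, and 9.67 and 3.69 in TertCi mice. Both HFD control mice stood above all other mice. In progenitor-like nuclei they were 0 and 0.895, 36.5 and 38.5, 8.94 and 1.59, and 5.31 and 2.17 in the same order. In macrophage-like nuclei they were 3.16 and 0, 63.1 and 55.7, 11.8 and 2.75, and 9.73 and 2.56. The HFD control mice were the 2 highest in each of these 3 classes.

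Pooled over both mice of a group, the ratio of Angpt2 in HFD controls to SD controls was 17.8 in adipocyte-like nuclei (95% exact interval 13.7 to 23.5, counting error only). In progenitor-like nuclei it was 65.9 (11.8 to 2607), from 757 UMIs against 1, and in macrophage-like nuclei 68.1 (12.2 to 2691), from 1967 against 1. It was 5.28 (3.18 to 9.38) in endothelial-like and 23.2 (12.1 to 50.0) in mural-like nuclei. With 1 UMI in SD controls the fitted fold change depends on the prior count. Background droplets showed the same order of groups: Angpt2 was at 2.66 and 3.25 CPM in SD controls, 22.2 and 43.6 in HFD controls, 11.3 and 5.57 in Tert mice, and 11.1 and 5.46 in TertCi mice. Progenitor-like Angpt2 was above background in rep128 only and below it in the other 7 libraries. In adipocyte-like nuclei it was above background in 4 of 8 libraries (rep146, rep128, rep129 and rep134), and in macrophage-like nuclei in 4 of 8 (rep144, rep128, rep129 and rep134). How much of the difference is free RNA was not tested.

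The fitted log2 fold change of Angpt2 for diet was 3.79 (SE 0.79, adjusted p = 0.0126) in adipocyte-like, 5.72 (SE 0.88, adjusted p = 0.00101) in progenitor-like and 5.85 (SE 0.98, adjusted p = 0.00149) in macrophage-like nuclei. For Tert it was -2.24 (adjusted p = 0.00298) in progenitor-like and -2.66 (adjusted p = 0.00199) in macrophage-like nuclei, and in adipocyte-like nuclei -2.76 did not pass (adjusted p = 0.0661). That value passed without rep134 (-5.79, adjusted p = 0.0124), without rep138 (-2.72), without rep140 (-2.71), without doublet removal (-2.83) and without a filter on low counts (-2.66). The same value passed with an earlier rule for naming clusters (-2.79, adjusted p = 0.0351). For TertCi the fitted value was -2.90 (adjusted p = 0.0278) in adipocyte-like, -2.82 (adjusted p = 0.000547) in progenitor-like and -2.84 (adjusted p = 0.0012) in macrophage-like nuclei. Inside adipocyte-like cluster 14 the 3 values were 4.06 (adjusted p = 0.00033), -2.92 (adjusted p = 0.00369) and -2.81 (adjusted p = 0.0012), all called. In that cluster the HFD control mice were at 81.8 and 55.1 CPM and the other 6 at 0 to 11.0, and progenitor markers were also higher in those 2 mice there. The whole-class adipocyte-like calls were lost without rep128 (3.58 for diet, -2.69 for TertCi), the diet call also without rep144 (3.31), and the TertCi call also without rep129 (-3.02) or rep140 (-2.40), with DESeq2 (-2.96, adjusted p = 0.0748) and with a threshold of 1000 UMIs (-2.87, adjusted p = 0.0515). The macrophage-like diet call was lost without rep146 (4.00). Leaving out a mouse with few UMIs of Angpt2 or its partner moved fitted values by over 1.5 times while the call held: progenitor-like diet to 5.09 without rep144 and 10.45 without rep146, Tert to -4.23 without rep134 and TertCi to -3.74 without rep138. Adipocyte-like diet moved to 4.62 without rep146 and TertCi to -3.73 without rep138. Macrophage-like diet moved to 11.57 without rep144, Tert to -4.18 without rep134 and TertCi to -4.36 without rep138. The values 10.45 and 11.57 are fitted against an SD control mouse at 0 CPM, so their size depends on the prior count. With 1000 UMIs in every library the progenitor-like diet value was 4.64 and the macrophage-like one 5.18, and with classes per nucleus the macrophage-like one was 4.55, all called.

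By cluster, Angpt2 of HFD control macrophage-like nuclei was highest in cluster 31 (104 and 127 CPM). Cluster 1 (72.7 and 68.6) followed, and cluster 2 (41.3 and 83.7) overlapped it. Macrophage-like cluster 17, which all libraries filled, held 38.3 and 34.2 CPM in HFD controls, 0 in both SD control mice, 5.76 and 0 in Tert mice, and 8.46 and 0 in TertCi mice. There only Tert passed (-3.21, adjusted p = 0.0385), and TertCi gave -2.52 (adjusted p = 0.0922). In mural-like nuclei, the class with the highest mean level of Angpt2 over libraries, the HFD control mice were not apart from the other high-fat diet mice: levels were 81.4 and 59.2 CPM in HFD controls, 58.7 and 43.8 in Tert mice, and 82.4 and 57.0 in TertCi mice. The log2 fold change there was -0.41 (SE 0.46) for Tert and 0.13 (SE 0.40) for TertCi. The difference between mural-like and other nuclei in these folds was not tested. Of all Angpt2 UMIs in kept nuclei of HFD controls, mural-like nuclei held 2.08% ± 0.36, adipocyte-like nuclei 11.5% ± 1.46 and macrophage-like nuclei 44.8% ± 4.94 (SD, n = 2).

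In progenitor-like nuclei the other angiopoietin, Angpt1, went the opposite way, together with Vegfc and the receptor Tek. Angpt1 was at 262 and 259 CPM in SD controls, 123 and 138.3 in HFD controls, 231 and 247 in Tert mice, and 259.8 and 292 in TertCi mice. The 2 HFD control mice were below all 6 others. Background Angpt1 was 268 and 283 CPM in SD controls, above both of their progenitor-like values, and 32.8 to 109 in the other 6 libraries, all below theirs. Its part in the diet difference was not tested. Vegfc was at 353 and 276, 173 and 93.7, 318 and 427, and 305 and 417 CPM in the same order. Tek was at 283 and 239, 152 and 178, 275 and 218, and 274 and 239. For both genes again the HFD control mice were the 2 lowest, without overlap.

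The log2 fold change of Angpt1 was -1.31 (SE 0.16, adjusted p = 0.000323) for diet, 1.13 (SE 0.16, adjusted p = 0.00113) for Tert and 1.40 (SE 0.16, adjusted p = 0.000116) for TertCi. That of Vegfc was -1.52 (SE 0.30, adjusted p = 0.00435), 1.71 (SE 0.29, adjusted p = 0.00232) and 1.73 (SE 0.29, adjusted p = 0.00102). For Tek it was -0.97 (SE 0.17, adjusted p = 0.00194), 0.84 (SE 0.16, adjusted p = 0.00416) and 0.96 (SE 0.16, adjusted p = 0.000961). The Tert value of Tek was lost without rep128 (0.66, adjusted p = 0.0951), and with the earlier rule for naming clusters the 3 Tek values were -0.45, 0.34 and 0.41 and none passed. Tek was also lost for diet with classes called per nucleus (-0.39, adjusted p = 0.112) and for Tert with a threshold of 1000 UMIs in every library (0.60, adjusted p = 0.0886). That threshold also ended the Vegfc diet call (-0.81, adjusted p = 0.132).

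**Figure D4:**
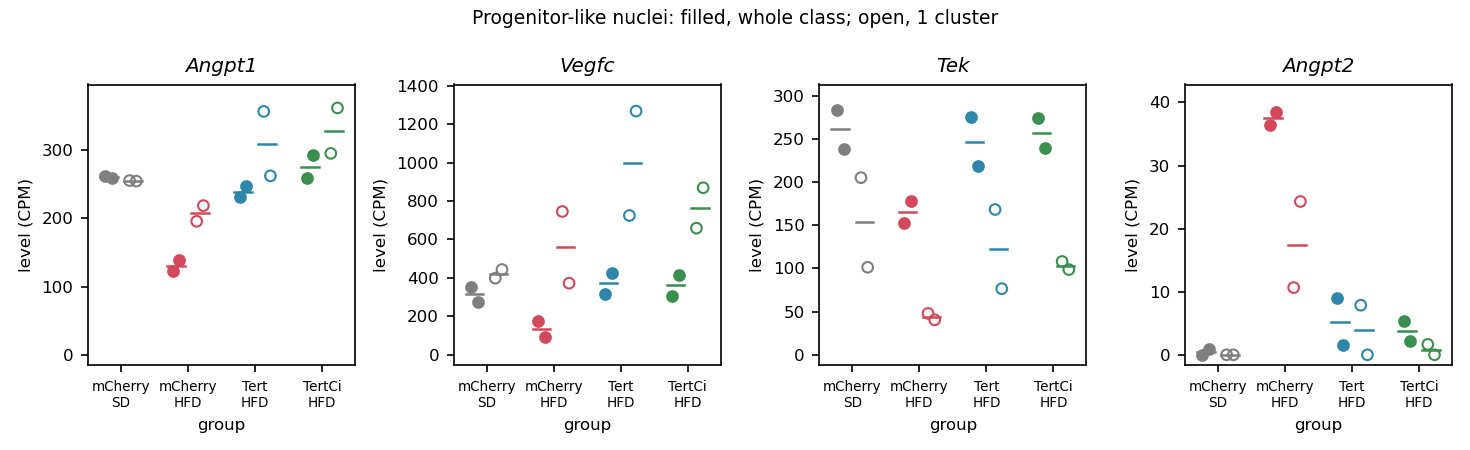
CPM of Angpt1, Vegfc, Tek and Angpt2 in progenitor-like nuclei of each mouse by group, for the whole class (filled points) and for cluster 20 alone (open points), with short lines at the mean of 2 mice. The filled points of the 2 HFD control mice are lowest for Angpt1, Vegfc and Tek and highest for Angpt2, and the open points of Angpt1 and Vegfc are closer between groups or in another order.

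These differences went along with a change in which clusters filled the class. In HFD controls clusters 9, 26 and 32 held 28.6%, 29.7% and 34.1% of progenitor-like nuclei and cluster 20 held 5.11%. In SD controls cluster 20 held 35.4%, cluster 8 held 32.4% and cluster 10 held 31.7%, and clusters 8, 10 and 20 also held most of the class in Tert and TertCi mice. Vegfc was highest in cluster 20, at 373 to 1268 CPM over the 8 mice. Tek was highest in clusters 9 and 10, at 250.0 to 704 CPM, and Angpt1 was at 146.2 to 443 CPM in cluster 8 and 196 to 362 in cluster 20.

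Within cluster 20 alone most of the differences did not pass. Angpt1 there was at 255 and 255 CPM in SD controls, 196 and 219 in HFD controls, 357 and 262 in Tert mice, and 295 and 362 in TertCi mice, with log2 fold changes of -0.45 (adjusted p = 0.342), 0.71 (adjusted p = 0.136) and 0.77 (adjusted p = 0.0728). The HFD control mice were again lowest. Vegfc was at 399 and 444, 746 and 373, 725 and 1268, and 659 and 869 CPM, so that the diet value turned to 0.36 (adjusted p = 0.631), with 0.83 (adjusted p = 0.234) for Tert and 0.47 (adjusted p = 0.518) for TertCi. Tek was at 205 and 101, 47.9 and 40.5, 168 and 76.5, and 108 and 98.7 CPM, and here diet passed at -1.81 (adjusted p = 0.0289), while 1.58 for Tert (adjusted p = 0.0655) and 1.25 for TertCi (adjusted p = 0.118) did not. In that cluster 4.96%, 2.39% and 4.24% of all tested genes were called in the 3 comparisons, and 1, 0 and 0 of 6 of the 10 genes. The macrophage marker sum in progenitor-like nuclei was 1151 and 1304 CPM in HFD controls against 181 to 573 in the other 6 libraries, and its part in these results was not tested.

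Other members were called in progenitor-like nuclei as well. Nrp1 rose with diet, from 279 and 261 to 532 and 545 CPM (log2 fold change 0.69, SE 0.15, adjusted p = 0.00799, lost without rep146 at 0.57 and with classes per nucleus at 0.39), and it was at 509.8 and 536 in Tert mice and 466 and 435 in TertCi mice. Nrp2 fell by 0.59 on the log2 scale with TertCi (adjusted p = 0.0113), from 115 and 112 to 62.9 and 57.9 CPM. That call was lost without rep128 (-0.64), rep138 (-0.61) or rep140 (-0.53), with 1000 UMIs (-0.12, adjusted p = 0.779) and with classes per nucleus (-0.37, adjusted p = 0.106), and under the earlier naming rule the value was 0.024. Vegfa was called lower with diet (-1.15, adjusted p = 0.0127, lost without rep128 at -0.97 and without rep146 at -0.65). It was called higher with Tert (0.86, adjusted p = 0.0339, lost without rep128 at 0.70, rep129 at 0.92 and rep136 at 0.64). The diet call was lost without scaling factors (-0.84) and the Tert call with DESeq2 (0.83, adjusted p = 0.0689), with classes per nucleus (1.12), without scaling factors (0.60) and with 1000 UMIs (0.95). Under the earlier naming rule both were lost (-0.88, adjusted p = 0.0546 for diet and 0.61, adjusted p = 0.148 for Tert). The adipocyte marker sum in this class was 203 and 559 CPM in SD controls, 49.1 and 69.8 in HFD controls, 189 and 202 in Tert mice, and 248 and 205 in TertCi mice, and its part was not tested. All 8 values, 32.6 to 79.6 CPM, were below background. Vegfb fell by 1.57 with TertCi (adjusted p = 0.0148), at 8.84 and 10.6 CPM in HFD controls and 2.75 and 2.17 in TertCi mice. It was lost without rep128 (-1.80), rep129 (-1.53), rep138 (-1.77) or rep140 (-1.46), and with DESeq2 (-1.67, adjusted p = 0.079).

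The other angiopoietin was also followed in adipocyte-like nuclei. Over the class as a whole, Angpt1 was lower in all high-fat diet groups: 311 and 303 CPM in SD controls, 119 and 154 in HFD controls, 109 and 79.1 in Tert mice, and 59.0 and 121 in TertCi mice. The 2 SD control mice were above the other 6. The diet log2 fold change was -1.56 (SE 0.32, adjusted p = 0.0111), lost without rep128 (-1.37), and -1.18 (adjusted p = 0.0146) in cluster 14. Unlike in progenitor-like nuclei, Tert and TertCi gave -0.20 (adjusted p = 0.731) and -0.09 (adjusted p = 0.871), a contrast that was not tested. In cluster 14 TertCi passed at -1.06 (adjusted p = 0.0369). In cluster 3 SD controls (274 and 301 CPM) were above Tert mice (127.6 and 124) and TertCi mice (100 and 143). In cluster 11, with 43.9% of SD control nuclei, these groups overlapped (435 and 363, 301 and 494, 385 and 532). HFD controls had only 10 and 8 nuclei in clusters 3 and 11. In cluster 22 SD controls (53.9 and 106) were below HFD controls (145 and 120). Tert mice were at 80.2 and 48.1 and TertCi mice at 36.2 and 65.7 there. The part of cluster makeup was not tested. Background Angpt1 was at 268 and 283 CPM in SD controls and 32.8 to 109 in the other 6 libraries.

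Within adipocyte-like cluster 14, Vegfc and Tek were high only in HFD controls among the 8 mice, at 64.2 and 58.7 CPM for Vegfc and 28.8 and 71.9 for Tek. The other 6 mice were at 4.55 to 21.7 for Vegfc and 3.52 to 14.1 for Tek. For Vegfc the log2 fold changes were 2.77 (adjusted p = 0.000752), -1.84 (adjusted p = 0.0148) and -2.38 (adjusted p = 0.00135). For Tek they were 1.83 (adjusted p = 0.0149), -2.75 (adjusted p = 0.00763) and -3.14 (adjusted p = 0.00135). In this cluster 22.8%, 9.92% and 19.7% of all genes were called, and 4, 4 and 5 of 9 of the 10 genes. Over the whole adipocyte-like class neither gene passed, with Vegfc at 31.0 to 60.4 and Tek at 16.8 to 66.3 CPM. Vegfc was above background only in the HFD control mice in this cluster, and both genes are highest in progenitor-like nuclei. Stromal genes were high in the same 2 mice in this cluster: Dcn was at 208 and 315 CPM against 9.63 to 36.8 in the other 6, and Col1a2 at 179.6 and 231 against 14.4 to 29.1. Both are progenitor markers, and their part in the changes of Vegfc, Tek and Angpt2 there was not tested. In adipocyte-like cluster 22 Angpt2 was also highest in HFD controls, at 81.3 and 111.5 CPM (98 and 16 nuclei) against 0 to 16.8 in the other 6. Dcn in cluster 22 was at 44.2 and 77.2 CPM in HFD controls and 5.97 to 45.6 in the other 6.

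Nrp2 rose with diet in adipocyte-like nuclei, from 48.2 and 44.3 to 113 and 109.9 CPM, and was at 76.4 and 55.2 in Tert mice and 29.1 and 42.8 in TertCi mice. The diet value was 0.89 (SE 0.22, adjusted p = 0.0231) and the TertCi value -1.14 (SE 0.23, adjusted p = 0.0124). The diet call was lost without rep128 (0.87), rep129 (0.86), rep144 (0.98) or rep146 (0.72). The TertCi call was lost without rep128 (-1.12), rep129 (-1.11) or rep138 (-0.82). With 1000 UMIs neither passed (0.47 and -0.92). The macrophage marker sum in adipocyte-like nuclei was 1280 and 1123 CPM in SD controls, 1119 and 1341 in HFD controls, 1138 and 777 in Tert mice, and 645 and 801 in TertCi mice, and its part in the Nrp2 values was not tested. In cluster 14 the values were 0.28 and -0.40, and neither passed. Vegfb was at 10.8 to 21.8 CPM in adipocyte-like nuclei of the 8 mice and passed in no comparison there.

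The endothelial-like class, where the receptors act, held 66 and 141 nuclei in SD controls, 321 and 107 in HFD controls, 427 and 279 in Tert mice, and 596 and 235 in TertCi mice. It consisted of 3 clusters. Cluster 15 had the highest levels of the endothelial genes Cdh5 (167 to 263 CPM) and Pecam1 (430.0 to 895). It also had a macrophage marker sum (8 genes) of 4533 CPM in SD control rep146, 2595 and 2663 in HFD controls, 3554 and 2657 in Tert mice, and 2473 and 3275 in TertCi mice, and its part in the results of this cluster was not tested. Macrophage-like nuclei held Flt1 at 3.71 to 16.7 and Tek at 3.23 to 9.37 CPM. Cluster 12 also held Dcn, a gene of stromal cells, at 577 to 971 CPM, and cluster 5 held the adipocyte gene Plin1 at 294 to 593 CPM against 2.68 to 56.6 in clusters 12 and 15. Cluster 5 made up 66.7% of the class in SD controls, 4.21% in HFD controls, 41.4% in Tert mice and 50.7% in TertCi mice. The adipocyte marker sum (7 genes) of the whole class followed, at 1762 and 3475, 432 and 222, 2503 and 1416, and 2719 and 2111 CPM. Results of this class are therefore given with and without cluster 5 and for cluster 15 alone, where SD controls is rep146 with 23 nuclei and the diet comparison rests on 1 mouse against 2.

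In cluster 15 Flt1, Tek and Vegfc were higher in the TertCi mice than in the HFD control mice. Flt1 was at 417 CPM in SD control rep146, 525 and 548 in HFD controls, 709.6 and 694 in Tert mice, and 875 and 921 in TertCi mice. The 3 high-fat diet groups did not overlap. The fitted log2 fold change was 0.42 (SE 0.19, adjusted p = 0.197) for Tert and 0.82 (SE 0.19, adjusted p = 0.00749) for TertCi. Tek was at 158, then 174 and 203, 284 and 349, and 382 and 404 CPM in the same order, which gave 0.76 (SE 0.22, adjusted p = 0.0391) for Tert and 1.14 (SE 0.22, adjusted p = 0.0022) for TertCi. Vegfc was at 185, then 121 and 126, 201 and 363, and 538 and 364 CPM, with 1.14 (SE 0.31, adjusted p = 0.0262) and 1.97 (SE 0.29, adjusted p = 0.000375). For these 3 genes the HFD control mice were below both other high-fat diet groups. The genes that mark endothelial nuclei moved the same way: their sum (8 genes, all detected) was 3976 CPM in rep146, 3695 and 4500 in HFD controls, 5858 and 5799 in Tert mice, and 7755 and 6426 in TertCi mice. Among them Pecam1 was at 454, then 430.0 and 515, 610.2 and 566, and 895 and 617 CPM, and Cdh5 at 167, then 214 and 209, 252 and 231, and 263 and 260.2 CPM. The part of this general endothelial signal in the changes of Flt1, Tek and Vegfc was not tested.

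Kdr, the main signalling receptor of VEGF-A, was at 139 CPM in rep146, 97.1 and 89.8 in HFD controls, 228 and 109 in Tert mice, and 139 and 88.1 in TertCi mice. The Tert value passed (0.95, SE 0.28, adjusted p = 0.0431), with rep134 far above rep136, and the TertCi value did not (0.41, SE 0.29, adjusted p = 0.377). Nrp1 was at 936, then 898 and 996, 1307 and 897, and 967 and 1217 CPM, and Nrp2 at 473, then 412 and 368, 477 and 339.7, and 385 and 268. The co-receptors overlapped between groups and passed in no comparison in cluster 15. Diet called 0 of 9 tested genes there (edgeR, 2.71% of all genes called), Tert 3 of 9 (10.3%) and TertCi 3 of 9 (18.1%). The adipocyte marker sum in cluster 15 was 98.2 and 117 CPM in HFD controls, 279.6 and 373 in Tert mice, and 326 and 272 in TertCi mice, and its part was not tested.

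**Figure D5:**
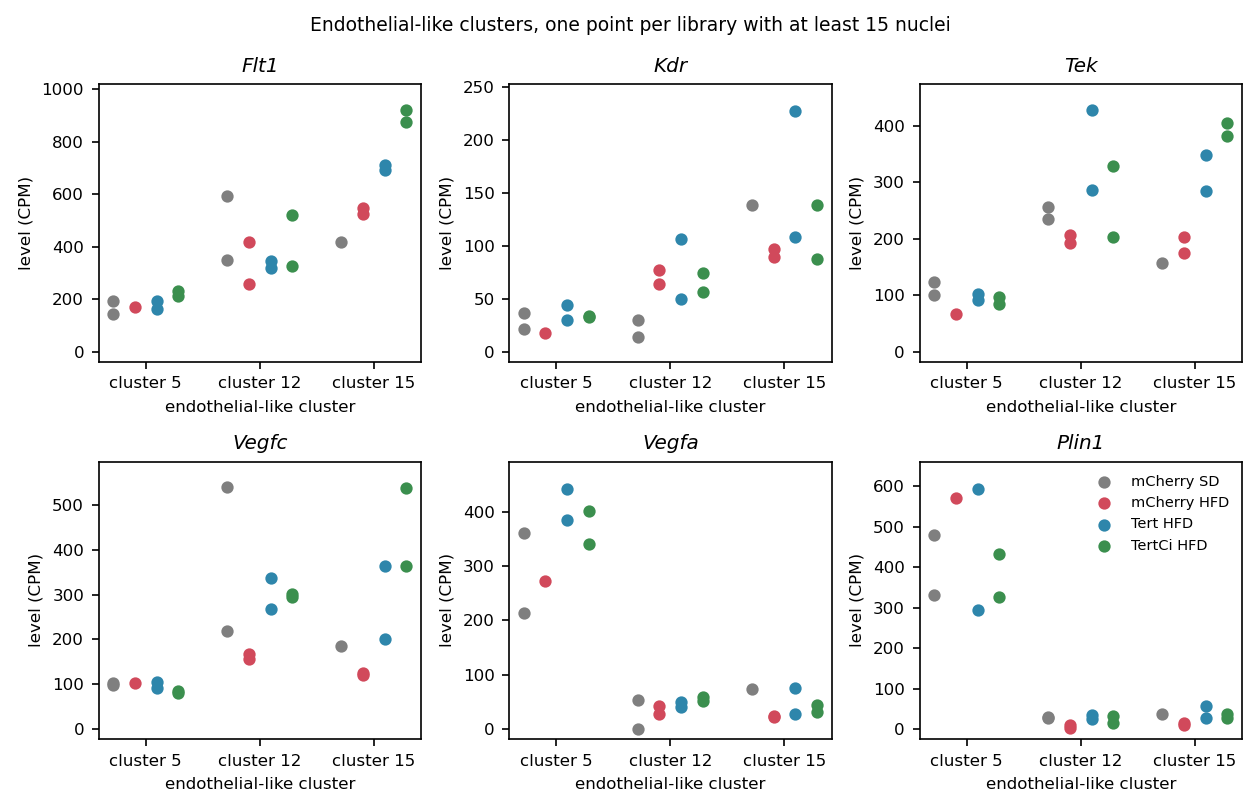
CPM of Flt1, Kdr, Tek, Vegfc, Vegfa and the adipocyte gene Plin1 in endothelial-like clusters 5, 12 and 15, 1 point per mouse with at least 15 nuclei in the cluster, by group. Vegfa and Plin1 are high in cluster 5 of each group shown, and Flt1 is lowest there.

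Over the whole class Flt1, Kdr and Tek did not pass. Flt1 was at 293 and 235, 452 and 435, 288 and 341, and 381 and 323 CPM (SD controls, HFD controls, Tert mice, TertCi mice), with log2 fold changes of 0.48, -0.26 and 0.04. Kdr was at 20.4 and 46.2, 82.1 and 82.2, 87.9 and 52.4, and 58.7 and 43.5 CPM (0.80, 0.03 and -0.30). Tek was at 153 and 122, 174 and 196, 161 and 212, and 182 and 138.2 CPM (0.15, 0.25 and 0.18). Both HFD control mice lay above both SD control mice for the 3 receptors. The diet value passed for Flt1 with classes called per nucleus (0.69, adjusted p = 0.0162) and without scaling factors (0.79, adjusted p = 0.0122). It passed for Kdr with clustering without the pathway genes (0.95, adjusted p = 0.0366) and without scaling factors (1.12, adjusted p = 0.041), and Tek passed for TertCi with classes called per nucleus (0.53, adjusted p = 0.0445). Without cluster 5, Tek passed for Tert (0.81, adjusted p = 0.02) and TertCi (0.87, adjusted p = 0.00701). Flt1 passed for TertCi (0.62, adjusted p = 0.038), and Vegfc passed in all 3 comparisons (-1.12, 1.10 and 1.60, adjusted p = 0.0372, 0.0152 and 0.00058). In that subset 9.54%, 12.4% and 20.9% of all genes were called.

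The calls of the whole endothelial-like class were for other genes, and those of Vegfa and Nrp2 were lost without cluster 5. With a threshold of 1000 UMIs in every library none of the 10 genes was called in this class. There the values for diet, Tert and TertCi were -2.11, 1.66 and 1.37 for Vegfa and -1.15, 1.00 and 0.74 for Angpt1, while Angpt2 was at 0.67, -0.85 and -0.58 and Nrp2 at 0.23 for diet and -0.012 for TertCi. With classes per nucleus the diet values of Angpt1 (-3.04) and Angpt2 (2.70) were larger and called. Vegfa was at 143 and 296 CPM in SD controls, 49.2 and 37.4 in HFD controls, 260.0 and 293 in Tert mice, and 247 and 310.3 in TertCi mice, and was called at -2.65 (adjusted p = 6.65e-05), 2.84 (adjusted p = 6.14e-05) and 2.99 (adjusted p = 1.21e-05). The 4 SD and HFD control values were below background and the 4 Tert and TertCi values above it. Cluster 5 held Vegfa at 214 to 442 CPM and clusters 12 and 15 at 0 to 75.5. Without rep146 the diet value was -2.01. Without cluster 5 the values were -0.97, 0.77 and 0.95, and none passed. Nrp2 was at 157 and 137, 312 and 349.5, 236 and 171, and 157 and 121 CPM, called for diet (0.89, adjusted p = 0.00591, lost without rep146 at 0.71) and TertCi (-0.87, adjusted p = 0.00243). Without cluster 5 the Nrp2 values were 0.31, -0.02 and -0.19, and in cluster 15 the diet value was -0.30.

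The ligand Angpt1 was called in all 3 comparisons in this class. It was at 160.2 and 200.4, 36.3 and 57.9, 91.0 and 91.7, and 59.2 and 97.8 CPM, below background in both SD controls, rep134 and rep138. It was called at -2.39, 1.30 (lost without rep128 at 0.89) and 1.23 (lost without rep128 at 0.82 and rep140 at 0.79). Without cluster 5 it was called at -1.38, 1.36 and 1.49. In cluster 15 it was at 0 in rep146 and at 11.2 to 41.9 in the 6 high-fat diet mice, and no value passed. Angpt2, which endothelial tip cells are known for, was at 3.41 and 13.6, 62.4 and 48.6, 17.5 and 9.53, and 9.14 and 12.7 CPM in the whole class. It was called for diet (2.08, lost without rep128 at 1.84 and 3.69 without rep146), Tert (-1.74, lost without rep128 at -1.50) and TertCi (-2.04). Without cluster 5 Tert gave -1.45 (adjusted p = 0.0274) and TertCi -1.52 (adjusted p = 0.0154), and diet gave 1.60 (adjusted p = 0.131). In cluster 15 it was at 46.3, then 67.7 and 56.8, 30.7 and 28.3, and 9.19 and 52.0 CPM, and no value passed.

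In macrophage-like nuclei the ligand Vegfa was low. It was at 15.8 to 51.2 CPM over the 8 mice, below background in each, and log2 fold changes of -0.75, 0.36 and 0.08 did not pass. With classes called per nucleus the diet value was -2.15 and passed (adjusted p = 0.0242). Nrp1, at 1009 and 1022 CPM in SD controls, 728 and 752 in HFD controls, 1000.4 and 667 in Tert mice, and 897 and 694 in TertCi mice, was called lower with diet (-0.60, adjusted p = 0.0216). That call was lost when any of rep128, rep129, rep144 and rep146 was left out (-0.62, -0.66, -0.60 and -0.68), with classes per nucleus (-0.44) and without scaling factors (-0.45). The macrophage marker sum of the class (8 genes, all detected) was 9634 and 10664 CPM in SD controls, 4481 and 4625 in HFD controls, 9265 and 4672 in Tert mice, and 8820 and 6604 in TertCi mice. Within the Tert and TertCi mice the mouse with the higher marker sum also had the higher Nrp1. Between groups the order did not hold: rep136 (4672) and rep140 (6604) had higher sums than both HFD controls but lower Nrp1 (667 and 694 against 728 and 752). The part of the marker sum in the Nrp1 change was not tested. Nrp2 was at 266 to 479 CPM and passed in no comparison. Clusters 1, 24 and 25 held 40.5%, 29.6% and 17.7% of the HFD control nuclei of the class, while cluster 19 held 66.8% in SD controls.

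Flt1 and Vegfc were called higher in macrophage-like nuclei of both Tert mice (1.75 and 1.27) and TertCi mice (1.54 and 1.08), but levels were 3.71 to 16.7 CPM for Flt1 and 5.88 to 25.3 for Vegfc, all below background. The endothelial marker sum in these nuclei was 53.8 and 73.0 CPM in SD controls, 27.8 and 44.5 in HFD controls, 95.7 and 87.4 in Tert mice, and 84.6 and 46.0 in TertCi mice. The adipocyte marker sum was 281 and 546, 48.6 and 91.7, 173 and 201, and 269 and 186 CPM in the same order, and the part of both in these changes was not tested. Without rep128 the Tert values were 1.34 and 0.91 and the TertCi values 1.13 and 0.71, and none passed. Without rep138 the TertCi values were 1.62 and 0.86, and without rep140 Vegfc was at 1.26, and these did not pass either. Flt1 was also lost with classes per nucleus (1.055 for Tert and 1.13 for TertCi) and, for TertCi, with clustering without the pathway genes (1.11) or at resolution 2.0 (1.07). Vegfc with TertCi was lost with DESeq2 (1.02), with classes per nucleus (0.91) and without scaling factors (0.93). Diet called Vegfc (-1.67, lost without rep128 at -1.33, rep144 at -1.52 and rep146 at -2.01) and Angpt1 (-2.97, lost without rep146 at -1.21, and -2.20 without rep128 and -3.87 without rep129). The library rep146 held Angpt1 at 66.6 CPM and the other 7 at 3.42 to 14.5, below background in all 8. In cluster 17 alone 0, 1 and 0 of 7 tested genes were called, where 3.69%, 6.62% and 6.16% of all genes were.

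Mural-like nuclei of SD controls came from rep146 alone, since rep144 had 10 and was left out, so each diet value rests on 1 mouse against 2 and on the spread of the other groups. Of the SD control mural-like nuclei, 286 lay in cluster 27, which no other group filled. In the remaining cluster 21, rep146 had 20 nuclei, and SD control values without cluster 27 rest on these. They held Plin1 at 308.7 CPM, against 258.6 in cluster 27 and 37.3 and 32.3 in HFD controls, so leaving out cluster 27 did not remove the adipocyte signal. Its part was not tested. Angpt2 was at 3.06 CPM in rep146 against 81.4 and 59.2 in HFD controls, called at 4.33 (adjusted p = 6.42e-07), and without cluster 27 it was 2.34 (adjusted p = 0.103). Vegfa was at 224 CPM in rep146 and at 27.5 and 26.9 in HFD controls (-3.23, adjusted p = 2.09e-06, and -3.75 without cluster 27), all 3 below background, where the adipocyte marker sum was 2590 CPM in rep146 and 64.6 to 505 in the high-fat diet mice. The Vegfa call was lost with classes called per nucleus (-1.20, adjusted p = 0.0632) and was -2.21 with a threshold of 1000 UMIs, which ended the Angpt2 call (1.14, adjusted p = 0.215). Angpt1 gave -1.05 (adjusted p = 0.0258, lost without rep128 at -0.56), and the call was also lost with DESeq2 (-0.96), at clustering resolution 2.0 (-0.996), without doublet removal (-1.08), without scaling factors (-0.82) and with 1000 UMIs (-0.19). Nrp1 gave 0.87 (adjusted p = 0.0384, lost without rep128 at 1.03 and without rep129 at 0.71, and -0.033 without cluster 27), and it was lost with DESeq2 (0.89), at resolution 2.0 (0.70), with classes per nucleus (0.52), without doublet removal (0.67) and without a filter (0.65). Vegfc was the 1 gene called for TertCi, at 1.77 (adjusted p = 0.00738), with 49.0 and 91.5 CPM in HFD controls and 262 and 78.4 in TertCi mice. It rested on rep138, without which it was 0.48, and was also lost without rep128 (1.16), with DESeq2 (1.49), at resolution 2.0 (1.45), with classes per nucleus (1.29), with 1000 UMIs (1.63) and without doublet removal (1.30).

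Around the 10 genes, 87 further genes of the pathway were followed in 6 lists. They covered the remaining family members, Notch and tip or stalk genes, receptor signalling, the hypoxia response, other angiogenic ligands with VEGF-binding or inhibiting proteins, and endothelial genes. In adipocyte-like nuclei 3 rose and 10 fell of 71 tested with diet, 2 rose and 0 fell with Tert, and 8 rose and 3 fell with TertCi. Over all genes tested in the class, 13.9% rose and 8.8% fell with diet, 1.19% and 2.39% with Tert, and 7.77% and 10.9% with TertCi. The largest with diet were Pik3r1, a regulatory subunit of PI3 kinase, from 1468 ± 17.4 to 351 ± 28.8 CPM (log2 fold change -2.44), and Bnip3, a hypoxia-responsive mitophagy gene, from 332 ± 8.39 to 99.9 ± 11.3 (-2.13). Bnip3 was at 148 ± 23.3 in Tert mice (0.90) and 220.3 ± 59.5 in TertCi mice (1.64), both called higher than in HFD controls. Prkca, a protein kinase C, was called with Tert (0.84), and Foxo1, a transcription factor that induces Angpt2 in endothelium, with TertCi (1.50). Pdgfb, the ligand that recruits pericytes, rose with diet (2.09) and fell with TertCi (-1.74). The means have SD over 2 mice.

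In progenitor-like nuclei 5 rose and 14 fell of 63 tested with diet, 14 rose and 7 fell with Tert, and 17 rose and 12 fell with TertCi. Over all genes tested in the class, 13.1% rose and 10.1% fell with diet, 8.69% and 13.4% with Tert, and 14.0% and 19.5% with TertCi. Receptor signalling made up 8 of the 14 that fell with diet, while 2 of that list rose. With Tert 6 of it rose and 3 fell, and with TertCi 10 rose and 4 fell. The median log2 fold change of that list was -0.57, 0.42 and 0.54 over 18 tested genes, beside 0.03, -0.02 and -0.03 over all genes. Medians of the list in the other classes had the same signs, but the classes share their mice and are not independent. With diet 6 of the list fell and 0 rose in adipocyte-like nuclei (medians -0.44, 0.30 and 0.36). In macrophage-like nuclei 7 fell and 0 rose (-0.87, 0.45 and 0.54). In endothelial-like nuclei 3 fell and 0 rose (-0.09, 0.11 and 0.25, beside 0.05, -0.01 and -0.03 over all genes). There 5 rose and 1 fell with Tert, and 4 rose and 3 fell with TertCi. Mural-like medians were -0.16, 0.43 and 0.55. Pdgfb went from 1.19 ± 0.416 CPM in SD controls to 25.4 ± 1.17 in HFD controls (4.18) and 3.96 ± 0.239 in TertCi mice (-2.35). The fatty acid carrier Cd36 went from 179 ± 47.8 to 809 ± 82.5 with diet (1.86) and to 303 ± 127 in Tert mice (-1.17) and 199 ± 89.9 in TertCi mice (-1.69). The macrophage marker sum in this class was likewise highest in HFD controls (1151 and 1304 CPM against 181 to 573), macrophage-like nuclei of HFD controls held Pdgfb at 86.4 ± 11.2 CPM, and the part of these in the changes was not tested. Adm, a hypoxia-induced vasodilator peptide, was called with Tert (1.37), and Egr3, an immediate early gene downstream of VEGF, fell with Tert (-1.35) and TertCi (-1.58).

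In macrophage-like nuclei 5 rose and 11 fell of 58 tested with diet, 8 rose and 4 fell with Tert, and 11 rose and 4 fell with TertCi. Over all genes tested in the class, 11.5% rose and 9.42% fell with diet, 7.62% and 11.6% with Tert, and 10.4% and 15.1% with TertCi. Pdgfb rose with diet from 14.6 ± 6.17 to 86.4 ± 11.2 CPM (2.60), Hgf, another angiogenic ligand, rose from 28.0 ± 5.15 to 92.8 ± 9.5 (1.65), and Prkca fell from 367 ± 58.6 to 97.2 ± 1.47 (-2.07). With TertCi Prkca rose to 243 ± 13.2 (1.47), Foxo1 rose (1.45), and the glycolytic gene Ldha fell (-1.37), as it did with Tert (-1.35). The adipocyte marker sum in this class was 281 and 546 CPM in SD controls, 48.6 and 91.7 in HFD controls, 173 and 201 in Tert mice, and 269 and 186 in TertCi mice. The macrophage marker sum went from 9634 and 10664 to 4481 and 4625 with diet. The part of both sums in these changes was not tested. In endothelial-like nuclei 4 rose and 8 fell of 75 tested with diet, 12 rose and 4 fell with Tert, and 12 rose and 9 fell with TertCi. Over all genes tested in the class, 10.9% rose and 10.2% fell with diet, 8.84% and 9.71% with Tert, and 14.0% and 16.6% with TertCi. Bnip3 had the largest called change there with diet (-3.77) and TertCi (3.28), and the adipocyte hormone gene Lep had it with Tert (2.47). Lep was at 124 ± 3.26 CPM in SD controls, 32.1 ± 11.0 in HFD controls, 167 ± 31.4 in Tert mice and 187 ± 46.6 in TertCi mice. Both genes and the adipocyte marker sum were lowest in HFD controls, and the part of the marker sum was not tested. In cluster 15 the counts were 0 and 0 of 57 with diet, 6 and 1 with Tert, and 14 and 3 with TertCi, where 2.71%, 10.3% and 18.1% of all genes were called in either direction. Mural-like nuclei gave 7 and 7 of 48 with diet, 2 and 0 with Tert, and 4 and 2 with TertCi, among them the Notch ligand Jag1, higher with Tert (1.44) and TertCi (1.17). Over all genes there, 11.9% rose and 9.59% fell with diet, 1.05% and 1.96% with Tert, and 2.9% and 4.54% with TertCi. Between Tert and TertCi mice edgeR called 0 of the pathway genes in each class.

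For 5 of the genes, the 3 most similar of 7233 genes were found by Pearson correlation of log2(level + 1) over the 39 library-by-class sums, which share their libraries and classes. These sums are of the 5 tested classes, so mesothelial-like and lymphatic endothelial-like nuclei are not among them. Nearest to Vegfa were Tmem120a (0.95), Gstz1 (0.94) and Agpat2 (0.93). Nearest to Flt1 were Etl4 (0.96), Mecom (0.95) and Ablim3 (0.95), and nearest to Kdr were Cdh5 (0.94), Pecam1 (0.91) and Etl4 (0.91). Cdh5, Pecam1 and Mecom are among the markers that named the endothelial-like class. For Nrp1 they were Kcnq1 (0.85), Stard8 (0.85) and Cbfa2t3 (0.85), and for Angpt1 Pard3 (0.93), Fat1 (0.92) and Sox5 (0.92).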

How the data were processed

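The authors deposited UMI counts per feature and barcode for 8 libraries of DAPI-sorted nuclei, made with Cell Ranger 7.1.0 per the file headers, while the submitters' processing notes name Cell Ranger 5.0.1, bcl2fastq 2.20.0 and the build mm39. The series' design text speaks of the stromal vascular fraction and of p21+/- mice, and the sample labels were followed. Batches of 2 mice, per the labels' protocols, are not recorded per mouse.

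A barcode was kept as a nucleus above a depth threshold set per library (987 to 4704 UMIs), provided it had 300 or more genes and no more than 5% of its UMIs from mitochondrial genes. The doublet caller marked at most 0.154% of nuclei, so the highest doublet scores were removed instead, at 0.8% per 1000 nuclei (1.59% to 6.35% per library). Background came from barcodes of at least 10 UMIs and at most 0.1 of the threshold. Leiden clustering (resolution 1.0, scanpy 1.11.5) gave 37 clusters, of which 1 mixed and 2 unnamed were not used in classes.

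UMI counts were summed per library and class, leaving out a library with under 20 nuclei, and tested with edgeR 4.0.16 (TMM, quasi-likelihood, all groups in 1 fit, Benjamini-Hochberg adjustment over all genes tested, R 4.3.3). The code was tested on simulated data. Alternatives were DESeq2 1.42.0, no scaling factors, no filter on low counts, each mouse left out, classes per nucleus, clustering without the pathway genes or at resolution 2.0, a depth threshold of 1000 UMIs in every library and no doublet removal. Added after seeing the data were the earlier naming rule, 1 cluster per class, and reduced classes. The latter were endothelial-like nuclei without cluster 5 and mural-like nuclei without cluster 27. The 10 genes are named in classes where a group mean reaches 10 CPM or where they are called, and of 87 pathway genes at most the 5 largest called per class and comparison. The genes, lists and tests were chosen with earlier results of these data known.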

Additional observations from a re-analysis of the deposited data

How the results depend on the processing

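No paired analysis was possible because the mouse numbers differ between the groups. Of the 50 called values of the 10 genes, 21 passed with each mouse left out in turn, 25 were lost without rep128 and 9 without rep129. With 2 mice per group, and 23 nuclei behind the SD control values of cluster 15, a value that did not pass is not shown to be unchanged, and values near background cannot be read as expression.

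Leaving out a mouse moved the number of genes called as follows (diet, Tert, TertCi): 0 to 4, 0 to 2 and 0 to 3 for the adipocyte-like class, 4 to 7, 3 to 5 and 4 to 7 for the progenitor-like class, 0 to 5, 1 to 5 and 1 to 3 for macrophage-like nuclei, 3 to 4, 1 to 4 and 3 to 5 for endothelial-like nuclei, and 2 to 5, 0 to 0 and 0 to 1 for mural-like nuclei. With a threshold of 1000 UMIs in every library the counts were 0 for Tert and 0 for TertCi in the adipocyte-like class, 3 for Tert among progenitor-like nuclei, 0, 0 and 0 in endothelial-like nuclei, and 1 for diet and 0 for TertCi in mural-like nuclei. With the earlier naming rule they were 6, 3 and 5 in adipocyte-like nuclei, 3 for Tert in progenitor-like, 0 for diet in endothelial-like and 1 for diet in mural-like nuclei. In 1 cluster per class they were 4 for Tert and 5 for TertCi in the adipocyte-like class. They were 1, 0 and 0 among progenitor-like nuclei and 0, 1 and 0 in the macrophage-like class. Without cluster 5, which leaves cluster 12 with its Dcn in the class, diet gave 2 in endothelial-like nuclei. Adipocyte-like Tert counts were 0 without scaling factors, 2 without a filter, 0 with classes per nucleus and 2 without doublet removal, and macrophage-like TertCi was 1 with classes per nucleus. In mural-like nuclei diet gave 2 with DESeq2, with classes per nucleus, at resolution 2.0 and without doublet removal, Tert gave 2, 1 and 1 under the last 3, and TertCi gave 0 under all 4. Causes of these changes were not tested, and the subsets also hold fewer nuclei. Apart from the cluster subsets, the share of all genes called is not given for the settings in this paragraph. Those counts show how far the calls move and cannot be read against a background.

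These log2 fold changes turned sign. Progenitor-like Vegfc with diet was 0.36 in cluster 20, and Nrp2 with TertCi was 0.024 with the earlier naming rule. As mice were left out, macrophage-like Vegfa ran from -1.18 to 0.42 for diet, -0.31 to 1.02 for Tert and -0.0083 to 0.30 for TertCi, and without scaling factors it was -0.073 for TertCi. In endothelial-like cluster 15, which the earlier naming rule leaves alone in the class, diet gave -0.58 for Kdr, -0.020 for Nrp1, -0.30 for Nrp2 and 6.77 for Angpt1, a fit against a library at 0 that depends on the prior count. There Tert gave 0.42 for Flt1, 0.26 for Nrp1 and -0.034 for Angpt1, and TertCi gave 0.41 for Kdr and 0.27 for Nrp1. Without cluster 5, diet gave -0.058 for Flt1 and -0.18 for Tek, Tert gave 0.25 for Flt1 and 0.11 for Nrp1, and TertCi gave 0.24 for Kdr and 0.13 for Nrp1. Endothelial-like Kdr with Tert was -0.038 with DESeq2, -0.10 at resolution 2.0 and -0.18 without scaling factors, and Tek was -0.0098 for Tert and -0.21 for TertCi without scaling factors. Flt1 with TertCi was -0.012 with DESeq2, -0.061 at resolution 2.0 and -0.35 without scaling factors. Kdr with TertCi was 0.067 with 1000 UMIs and 0.046 with classes per nucleus. Nrp1 was 0.053, 0.0012 and 0.045 for Tert and 0.18, 0.016 and 0.028 for TertCi with 1000 UMIs, classes per nucleus and clustering without the pathway genes, and 0.044 for TertCi without a filter. Mural-like Nrp1 with diet was -0.032 with 1000 UMIs and -0.033 with the earlier naming rule and without cluster 27. As mice were left out, endothelial-like Tek ran from -0.10 to 0.27 for diet and -0.060 to 0.63 for Tert, Flt1 from -0.50 to 0.041 for Tert and -0.019 to 0.12 for TertCi, Kdr from -0.23 to 0.23 for Tert, and Nrp1 from -0.22 to 0.16 for Tert and -0.095 to 0.066 for TertCi.

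Without scaling factors the median log2 fold change of all genes (diet, Tert, TertCi) moved in adipocyte-like nuclei to 0.42, -0.33 and -0.53, with 87.8%, 10.1% and 7.97% of calls higher instead of 61.3%, 33.2% and 41.7%. It moved in progenitor-like nuclei to 0.34, -0.26 and -0.36, with 81.6%, 17.6% and 16.9% of calls higher instead of 56.5%, 39.3% and 41.9%, and in macrophage-like nuclei to 0.25, -0.17 and -0.23, with 66.1%, 27.0% and 28.5% of calls higher instead of 55.0%, 39.7% and 40.8%. It moved in endothelial-like nuclei to 0.36, -0.22 and -0.42, with 71.8%, 32.7% and 23.5% of calls higher instead of 51.6%, 47.7% and 45.9%, and in mural-like nuclei to 0.29, -0.10 and -0.19, with 66.4%, 23.5% and 21.3% of calls higher instead of 55.5%, 34.8% and 39.0%.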

Other observations

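The unnamed nuclei of rep146, most of them in 1 cluster that no class's markers named, held Angpt1 at 1212 CPM. That was above the level of Angpt1 in each named class of that mouse. They belong to no comparison of groups.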
